A study of Mus musculus with 64 samples.

Results

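Clone K was set against clone N, a pair of mouse pancreatic tumor cell lines grown without fibroblasts (mono-culture). Their 8 mono-culture libraries, 4 per clone, were taken from the 64 RNA-sequencing libraries of the series. The pair was chosen because its mono-culture expression profiles were weakly correlated with each other. Differences in mono-culture are therefore given as a description, with no test. The 4 coculture libraries of each clone took no part in that choice, and every p-value below comes from them. The gene lists were chosen with earlier results of these data known, so counts over a list are a description.

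Both clones were subcloned from a single tumor of a KPC mouse of C57BL/6 mixed background, heterozygous for the R172H allele of Trp53 and carrying Pdx1-Cre, and each is 1 clone. Pdx1-Cre recombines the model's alleles in cells of the pancreatic lineage, and all the libraries compared here come from that model. The study placed K and N in the same metabolic class, group 2, with clones M and T, and clones E, H and V in group 1, and it also used a line named KPC1. For the coculture arm, tumor cells were grown with fibroblasts for 48 h and then sorted by flow cytometry for their green fluorescent protein. The labels do not say whether mono-cultures were sorted or whether replicates were separate cultures, so the p-values measure the spread between libraries, which may be technical.

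Pancreatic ductal adenocarcinoma arises from cells that carry an epithelial program of transcription factors, cadherins and tight junctions, and tumor cells can lose parts of it. Metabolism in such cells is shaped in part by the integrated stress response, in which kinases that sense amino acid shortage or misfolded protein phosphorylate the initiation factor eIF2α and thereby favor translation of the transcription factor ATF4. ATF4 then induces enzymes of asparagine, serine and one-carbon metabolism and amino acid transporters, through promoter elements with the core TGATGNAA.

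The 300-base promoters of 3 such genes are shown because genes of this response were among those higher in N and because these promoters hold that core. The sequences are RefSeq's on build GRCm38.p6, from 250 bases before to 50 after the gene's start, and capitals mark TGATGNAA or its reverse complement. They lie at chr6:7693160-7693459 for Asns, chr3:50443564-50443863 for Slc7a11 and chr2:152344011-152344310 for Trib3, all on the minus strand and each spanning the first transcribed bases of its gene.
Asns: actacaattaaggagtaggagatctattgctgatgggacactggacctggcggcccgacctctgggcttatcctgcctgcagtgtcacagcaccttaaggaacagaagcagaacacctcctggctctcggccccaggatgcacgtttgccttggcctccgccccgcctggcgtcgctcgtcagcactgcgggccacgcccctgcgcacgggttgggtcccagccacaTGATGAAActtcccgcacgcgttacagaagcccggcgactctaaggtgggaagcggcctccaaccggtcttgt
Slc7a11: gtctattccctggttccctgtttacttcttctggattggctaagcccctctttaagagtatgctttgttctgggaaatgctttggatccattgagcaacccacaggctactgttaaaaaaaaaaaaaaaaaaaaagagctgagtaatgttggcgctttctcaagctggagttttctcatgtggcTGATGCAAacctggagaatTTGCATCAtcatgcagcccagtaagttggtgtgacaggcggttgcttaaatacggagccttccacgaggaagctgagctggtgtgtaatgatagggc
Trib3: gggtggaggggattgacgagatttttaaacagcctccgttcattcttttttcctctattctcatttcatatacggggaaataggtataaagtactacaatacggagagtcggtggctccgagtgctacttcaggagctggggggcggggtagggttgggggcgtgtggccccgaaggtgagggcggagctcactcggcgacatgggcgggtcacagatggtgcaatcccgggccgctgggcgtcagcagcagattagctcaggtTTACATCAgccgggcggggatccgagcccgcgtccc
The match began at base -23 in Asns, at -66 and -47 in Slc7a11 and at 15 in Trib3, counted from the start site. Of 36 genes of the integrated stress response list with a promoter in the table, 10 held a match on either strand. By promoter, the motif was in 22.7% of those of the list and in 2.22% of the 11854 promoters of all tested genes. It was in 4.24% of promoters of the genes higher in N by the rule given below and in 1.86% of those higher in K. A match is a description of the sequence only, and binding was not measured.

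Library totals were 14781274 to 16070068 counts for K and 11661214 to 13716090 for N in mono-culture, and 14752872 to 15593256 and 13131447 to 19756478 in coculture. Levels are given as CPM, the counts relative to each library's total after scaling by the trimmed mean of M-values over all 64 libraries. Sample numbers in the labels split the libraries into a first and a second sheet. The 4 K mono-cultures were all of the second sheet and the 4 N mono-cultures all of the first, so clone and sheet cannot be told apart within mono-culture. In coculture, K had 2 libraries of each sheet and N had 3 of the first and 1 of the second. In a fit over all 64 libraries with a term for the sheet, the median absolute sheet difference was 0.07 on the log2 scale, and of 3279 mono-culture differences described below 3275 kept their direction and 3082 were still at least 2-fold. Sorted coculture libraries held fibroblast RNA. Neither clone had over 1 CPM of 9 of the 20 fibroblast markers in mono-culture, and Thy1, Dcn and Lum had 0 counts there. Their summed level was 0.222 to 2.53 CPM in mono-culture, 110 to 553.1 CPM in K coculture and 143.4 to 488.9 CPM in N coculture. Of 9 leukocyte markers, Ptprc had at most 4 counts in any group and only Cd68 was high enough to be tested, at a mean of 8.65 CPM in K and 11.3 CPM in N in mono-culture and 11.8 and 27.8 CPM in coculture, where it was higher in N (adjusted p = 0.02). In these bulk samples fewer cells of a type and less RNA per cell cannot be told apart.

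Of 13045 genes tested, 1492 (11.4%) were at least 2-fold higher in K in mono-culture with all 4 K libraries above all 4 N libraries, and 1787 (13.7%) were higher in N by the same rule. The genes just inside the 2-fold threshold, Cbr3 and Mblac1, differed 2.00-fold, as did Zfp647 and Zfp219 just outside it. In coculture, 4372 genes (33.5%) were higher in K and 4395 (33.7%) higher in N by edgeR's quasi-likelihood test with Benjamini-Hochberg adjustment at 0.1, so 67.2% of genes passed. A list whose members pass at that rate does not stand apart from the background. Each coculture count over a list below is to be set beside those shares, 33.5% toward K and 33.7% toward N.

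The mono-culture differences were largely present in coculture. Of the 1492 genes higher in K, 1366 (91.6%) passed in the same direction in coculture, 3 passed in the opposite direction and 123 did not pass. Of the 1787 higher in N, 1598 (89.4%) passed in the same direction, 5 in the opposite direction and 184 did not pass. Sizes were smaller in coculture for 1056 of the K-higher genes, whose median log2 fold change was 1.61 in mono-culture and 1.37 in coculture. For the N-higher genes the medians were -1.89 and -1.43, with 1451 smaller in coculture. The choice of genes by their mono-culture size favors smaller values elsewhere, and the difference between the cultures was not tested for any gene. Leaving only the 2 coculture libraries of each clone with the least fibroblast RNA, 1296 of the 1492 and 1537 of the 1787 still passed in the same direction. The fibroblast marker sums of these libraries were not equal, at 123.4 and 110 CPM in K and 143.4 and 326.2 CPM in N.

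**Figure D1:**
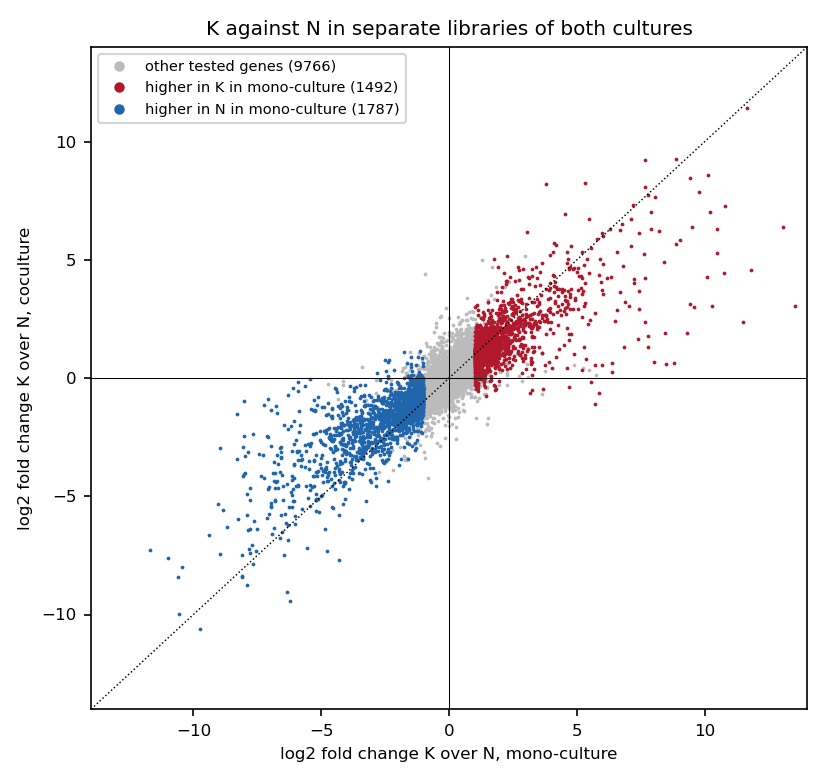
Log2 fold change of K over N for each of 13045 genes, mono-culture on the horizontal and coculture on the vertical axis. Genes at least 2-fold apart in mono-culture with libraries that do not overlap are colored by the clone in which they were higher, and most of them, 1366 of 1492 and 1598 of 1787, passed the coculture test on the same side of 0.

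The largest differences were between expression and its near absence. Cxcl12, the chemokine ligand of the receptor CXCR4, was at 1109, 716, 797 and 881 CPM in the 4 K mono-cultures and had 5 counts in all over the 4 N mono-cultures. In coculture it was at 589, 549, 581.9 and 578 CPM in K and at 4.26, 9.16, 4.49 and 9.95 CPM in N. The clones did not overlap in either culture, and the coculture log2 fold change was 6.39 ± 0.27 (SE, adjusted p = 5.51e-08). Cxcl12 is also a gene of fibroblasts, whose marker sum was 143.4 to 488.9 CPM in the same N cocultures, and their part in the N level was not tested.

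Of the 12 largest differences toward K, 9 had no count in any N mono-culture library, and all 12 were higher in K in coculture without overlap, as were 27.8% of all tested genes. In mono-culture, 27.4% of all tested genes had every K library above every N library, and 27.8% the reverse. Epb4.1l3, a linker of the membrane to the cytoskeleton, was at 136, 83.1, 114 and 92.3 CPM in K and had no count in N, at least 1890-fold higher against a floor of 3 counts over the 4 N libraries. Its N cocultures held 3.30, 7.62, 8.30 and 20.6 CPM, and the coculture log2 fold change was 3.03 ± 0.40 (adjusted p = 6.48e-05). Soga3 lay between 27.3 and 29.7 CPM in K mono-cultures and had no count in any N library of either culture, at least 510-fold higher in mono-culture and at least 468-fold in coculture. Edn1, which encodes the vasoactive peptide endothelin-1, ranged from 8.35 to 68.9 CPM in K mono-cultures against 1 count in N. Its coculture values were 15.6 to 31.8 CPM in K and 0.06 to 0.418 CPM in N (log2 fold change 7.01 ± 0.40, adjusted p = 3.37e-07). Nox4, an oxidase that produces hydrogen peroxide, was at 9.11 to 15.4 CPM in K mono-cultures and at no count in N, at least 223-fold higher. The other members were Tbc1d9, Zfhx4, Acot1, Tshz3, Ccdc3, Arhgap24 and Gm8113. Acot1 has near-identical paralogs with which reads could be shared.

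Of the 12 largest differences toward N, 5 had no count in K mono-cultures and another 4 had 1 to 3 counts, and again all 12 passed in coculture without overlap, as 27.4% of all tested genes did toward N. Wnt10a, a secreted Wnt ligand, was at 34.7, 40.5, 18.4 and 24.02 CPM in N and at no count in K, at least 584-fold higher. In coculture it was at 16.7 to 37.8 CPM in N and at most 0.371 CPM in K (log2 fold change -7.27 ± 0.44, adjusted p = 4.52e-07). Ifitm1, an interferon-inducible membrane protein of a family of close paralogs, was at 137, 102, 231 and 290 CPM in N mono-cultures and at 0.13 to 0.827 CPM in K. It had the lowest adjusted p of the genes named here, 1.48e-10, with a coculture log2 fold change of -7.46 ± 0.14. Zic2, a zinc finger transcription factor, had no count in any K library of either culture and 10.3 to 15.5 CPM in N mono-cultures, at least 265-fold higher there and at least 167-fold in coculture. Snap25, a component of the vesicle fusion machinery, was at least 273-fold higher in N mono-cultures, at 10.9 to 17.4 CPM. Muc5b, a gel-forming mucin, was at 13.3 to 25.4 CPM and at least 357-fold higher, and Muc13, a membrane mucin, had 8.02 to 15.4 CPM in N against a single K library with counts. The remaining members were Elfn2, Atp9a, Hapln4, Car12, Rasal1 and Lbp.

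**Figure D2:**
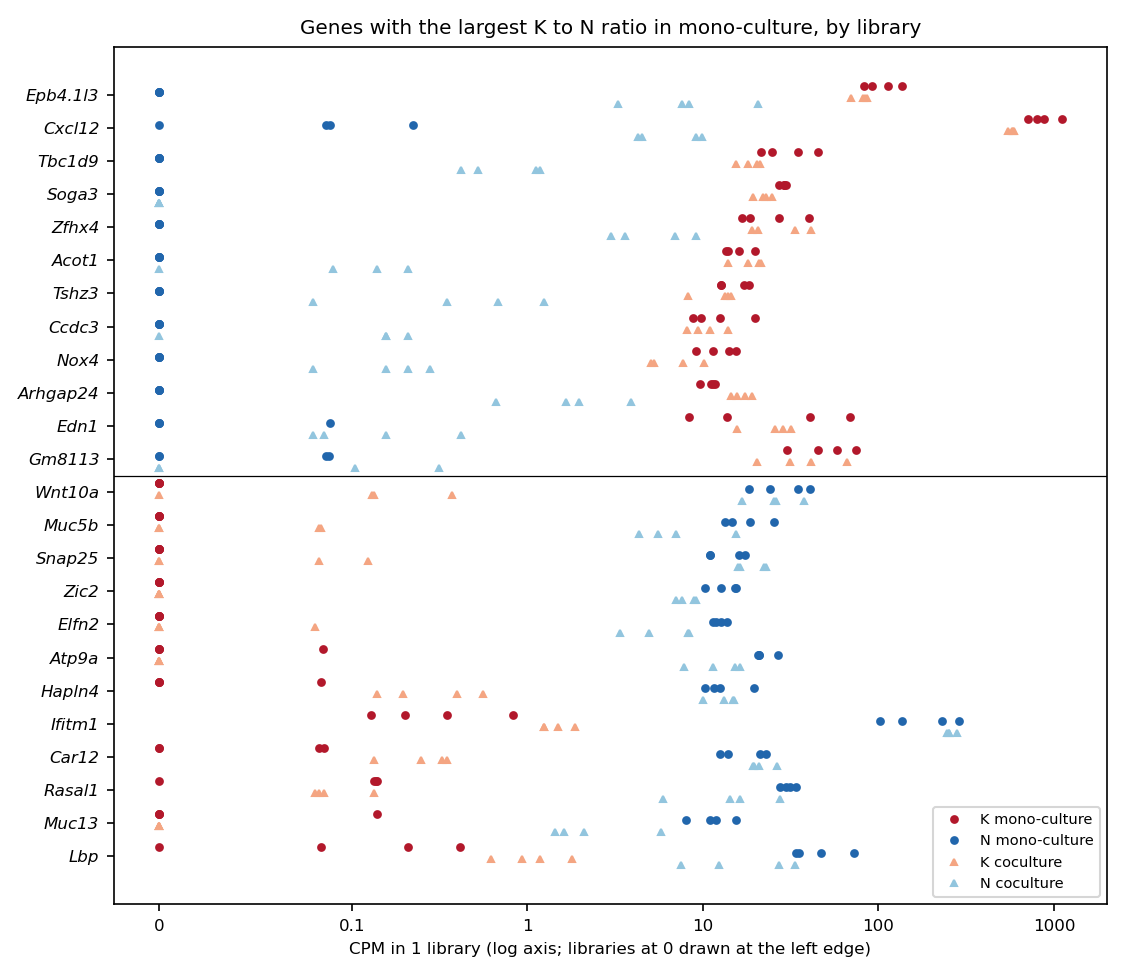
CPM on a log10 axis in each of the 16 libraries for the 12 genes with the largest mono-culture difference toward K and the 12 toward N. Each point is 1 library. The genes were chosen among those whose libraries did not overlap in mono-culture, and in all 24 genes the points of K and N also stood apart in coculture.

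Epithelial transcription factors were lower in K, while most junction genes were higher in K. Of 15 epithelial transcription and splicing factors tested, 7 were at least 2-fold higher in N in mono-culture and 1 in K, and in coculture 11 were higher in N and 2 in K. Hnf4a, a nuclear receptor of endodermal epithelium, was at 74.6, 78.7, 32.1 and 27.2 CPM in N mono-cultures and at 0.194, 0.276, 0.268 and 0.835 CPM in K. The clones did not overlap, and the coculture log2 fold change was -5.74 ± 0.40 (adjusted p = 9.04e-07). Ehf, an ETS factor of epithelial cells, had no count in 2 of the 4 K mono-cultures against 12.9 to 20.98 CPM in N, with a coculture log2 fold change of -6.75 ± 0.52 (adjusted p = 1.76e-06). Sox9, a factor of pancreatic ducts chosen after its values were seen, differed less, at -1.47 ± 0.20 in coculture (adjusted p = 8.88e-05). Lgals4, an epithelial galectin, was at 134 to 208 CPM in N mono-cultures and 0.972 to 3.96 CPM in K, and its coculture log2 fold change was -4.46 ± 0.30 (adjusted p = 7.97e-07).

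Of 10 junction and adhesion genes, 8 were higher in K in coculture and 1, Cdh1, was higher in N. E-cadherin (Cdh1), the main cadherin of epithelial junctions, was at 6.54, 7.58, 4.56 and 5.36 CPM in K and at 107, 111, 100 and 88.7 CPM in N in mono-culture. Its coculture log2 fold change was -4.45 ± 0.22 (adjusted p = 1.2e-07). N-cadherin (Cdh2), typical of mesenchymal cells, was the reverse, at 290 to 348 CPM in K and 70.2 to 91.4 CPM in N mono-cultures, with a coculture log2 fold change of 1.53 ± 0.10 (adjusted p = 4.9e-07). The 4 junction genes that follow were chosen after their values were seen. The tight junction genes Ocln, F11r and Tjp1 had coculture log2 fold changes of 0.99 ± 0.20, 0.77 ± 0.16 and 1.04 ± 0.13 toward K (adjusted p = 0.00134, 0.00172 and 5.63e-05). Jup, which encodes plakoglobin, was at 493 to 571 CPM in K and 176 to 284 CPM in N mono-cultures, 0.93 ± 0.13 in coculture (adjusted p = 0.000121). Among mesenchymal transcription factors, 9 in number, 1 was higher in K and 5 in N in coculture. Of 13 mesenchymal cytoskeleton and adhesion genes, with Cdh2 among them, 4 were higher in K and 3 in N. The shares of all tested genes were 33.5% toward K and 33.7% toward N. With first-sheet libraries alone 1 of the 13 was higher in K and 3 in N, where 3844 and 3693 of all 13045 genes were.

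Extracellular matrix and contractile genes differed in mono-culture and several of these differences did not pass, or passed narrowly, in coculture. Thbs1, the matrix protein thrombospondin-1, was at 6498, 3238, 5554 and 2310 CPM in K and at 338, 779, 308 and 481 CPM in N in mono-culture. In coculture it was at 2352, 2333, 1652 and 1176 CPM in K against 842, 997, 1309 and 1899 CPM in N, and the clones overlapped (log2 fold change 0.57 ± 0.27, adjusted p = 0.0874). With first-sheet libraries alone its adjusted p was 0.438, and it was 0.101 to 0.215 when K library 1, 2 or 3 or N library 1, 2 or 3 was left out. It did not pass with the replicate block (adjusted p = 0.148), in the 64-library fits (0.132, and 0.203 with a sheet term) or on log2 RPKM (0.101 and 0.106). Tagln, an actin-binding protein of contractile cells, had a mono-culture log2 fold change of 3.23 ± 0.53 and a coculture value of 0.69 ± 0.42 that did not pass (adjusted p = 0.176). Without N library 4 Tagln passed at 1.18 (adjusted p = 0.0199), and with first-sheet libraries alone it was at -0.02 (adjusted p = 0.974).

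Col12a1, a fibril-associated collagen, was at 6.33 to 17.4 CPM in K and 0.148 to 0.3 CPM in N in mono-culture. In coculture K was at 13.5, 15.1, 55.98 and 38.8 CPM and N at 17.4, 64.7, 37.6 and 72.4 CPM. The lower values fell in the libraries with the lower fibroblast marker sums, which in the same order were 123.4, 110, 503.2 and 553.1 CPM in K and 143.4, 386.1, 326.2 and 488.9 CPM in N. Its coculture difference did not pass (-0.63 ± 0.49, adjusted p = 0.286), but it passed without K library 3, at -1.09 (adjusted p = 0.0834), or without N library 1, at -0.91 (adjusted p = 0.0925). It also passed with first-sheet libraries alone, at -1.10 (adjusted p = 0.0483), and with the 2 libraries of each clone that held the least fibroblast RNA, at -0.94 (adjusted p = 0.0565). Col6a2, a subunit of collagen VI, was 0.972 to 3.55 CPM in K and 27.2 to 55.4 CPM in N in mono-culture, and it passed in coculture at -1.18 ± 0.45 (adjusted p = 0.0389). Of 19 collagens, 7 were higher in N in coculture and 12 did not pass, where 33.7% of all tested genes were higher in N. In the fit with a sheet term 5 collagens were higher in N and 2 in K. With the 2 libraries of each clone that held the least fibroblast RNA, 12 collagens were higher in N. The marker sums of those libraries were 123.4 and 110 CPM in K and 143.4 and 326.2 CPM in N. The sum in that subset was thus higher in N than in K. Col1a2, itself 1 of the 19 collagens, is among the summed markers. Over all 4 cocultures it had a mean of 221.8 of the 322.4 CPM in K and 229 of the 336.1 CPM in N. The part of fibroblast RNA in these counts was not tested. Of 17 integrins and laminins, which attach cells to matrix, 12 were higher in N and 3 in K in coculture. The shares of all tested genes were 33.7% and 33.5%.

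The integrated stress response differed across nearly the whole list of its amino acid genes. All 14 enzymes tested were higher in N in coculture, and 13 of them were at least 2-fold higher in N in mono-culture. Their median log2 fold changes were -2.13 in mono-culture and -2.09 in coculture, beside medians of -0.01 and -0.01 over all genes. Summed over the enzymes, the 4 K mono-cultures lay between 701.5 and 928.5 CPM and the 4 N mono-cultures between 2108 and 3570 CPM. The coculture sums were 940.1 to 1290 CPM in K and 3822 to 4807 CPM in N.

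Asns, asparagine synthetase, whose promoter is shown above, was at 66.5, 31.8, 62.3 and 38.5 CPM in K and at 359, 214, 417 and 349 CPM in N in mono-culture. In coculture it was at 101, 51.4, 68.7 and 80.5 CPM in K and at 516, 547, 688 and 541 CPM in N. Every N library was above every K library, and the coculture log2 fold change was -2.93 ± 0.19 (adjusted p = 6.71e-07). For the serine pathway, Psat1 (chosen after its values were seen) and Psph had coculture log2 fold changes of -2.56 ± 0.15 and -2.35 ± 0.15 (adjusted p = 3.98e-07 and 5.53e-07). Shmt2, the mitochondrial enzyme that splits serine into glycine and a one-carbon unit, was at 89.5 to 141 CPM in K and 304 to 589 CPM in N mono-cultures (-1.93 ± 0.16 in coculture, adjusted p = 2.62e-06). Aldh1l2, a mitochondrial folate enzyme, had the largest mono-culture difference of the enzymes, -3.63 ± 0.32, and -3.28 ± 0.20 in coculture (adjusted p = 4.71e-07).

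Of 16 transporters and effectors, 15 were higher in N in coculture and 1, the cationic amino acid transporter Slc7a3, was higher in K; it was named after its values were seen. Slc7a11, the cystine-glutamate exchanger, was at 27.9, 18.5, 24.2 and 21.7 CPM in K and at 597, 335, 1000.2 and 732 CPM in N in mono-culture. In coculture the values were 26.6 to 39.9 CPM and 422 to 683 CPM, a log2 fold change of -3.98 ± 0.20 (adjusted p = 1.6e-07). Trib3, a pseudokinase induced by ATF4, and Slc7a5, the large neutral amino acid transporter, had coculture log2 fold changes of -3.04 ± 0.20 and -2.69 ± 0.25 (adjusted p = 5.7e-07 and 5.37e-06). Among 11 factors and kinases, 6 were higher in N and 1 in K in coculture, beside 33.7% and 33.5% of all tested genes. Atf4 transcripts were at 245 to 406 CPM in K and 666 to 1074 CPM in N in mono-culture, with a coculture log2 fold change of -1.67 ± 0.13 (adjusted p = 1.63e-06). Eif2ak4, the kinase GCN2 that senses uncharged tRNA, did not pass in coculture (0.12 ± 0.12, adjusted p = 0.426). Phosphorylation and translation were not measured in these libraries. In the study's immunoblots, group 1 clones had more ATF4, ASNS, SHMT2 and PSPH protein than group 2 clones, K and N among them. Basal GCN2 phosphorylation was also lower in group 2. Asns RNA was ordered otherwise in mono-culture, with a mean of 335 CPM in N against 154, 156 and 118 CPM in E, H and V. Its means in the other group 2 clones were 49.8 CPM in K, 32.1 CPM in M and 160 CPM in T.

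The unfolded protein response, glycolysis and nucleotide synthesis also leaned toward N. Of 22 chaperones and sensors of the endoplasmic reticulum, 18 were higher in N in coculture and 4 did not pass. Hspa5, the chaperone BiP, was at 311 to 502 CPM in K and 1141 to 1663 CPM in N in mono-culture, and at -1.99 ± 0.24 in coculture (adjusted p = 4.22e-05). Xbp1, the transcription factor spliced by the sensor IRE1, had a coculture log2 fold change of -1.99 ± 0.12 (adjusted p = 4.82e-07). Of 23 glycolysis genes, 14 were higher in N and 1 in K in coculture, beside 33.7% and 33.5% of all tested genes. Ldha, lactate dehydrogenase A, was at 152 to 312 CPM in K and 494 to 1149 CPM in N in mono-culture (-1.21 ± 0.17 in coculture, adjusted p = 0.000104). Hk2, a hexokinase that traps glucose in the cell, and Pfkp, a phosphofructokinase, had coculture log2 fold changes of -1.86 ± 0.16 and -3.44 ± 0.25 (adjusted p = 3.59e-06 and 1.3e-06). Of 19 nucleotide synthesis and salvage genes, 16 were higher in N in coculture. Of 24 complex I subunits of the respiratory chain, 7 were higher in N and 3 in K. Both shares were below those of all tested genes, 33.7% and 33.5%. Of 27 glutamine and TCA cycle genes, 14 were higher in N, 4 were higher in K and 9 did not pass. Over both directions the list passed at a rate near the 67.2% of all tested genes. By the 2-fold rule 2 of them were higher in N in mono-culture and 0 in K. Bcat1, the cytosolic branched-chain aminotransferase of that list, was at 0.827 to 1.88 CPM in K and 45.9 to 113 CPM in N mono-cultures (-3.74 ± 0.27 in coculture, adjusted p = 1.1e-06).

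Of 22 genes of cholesterol and fatty acid synthesis, 12 were higher in K and 3 in N in coculture. With first-sheet libraries alone 8 were higher in K and 3 in N, where 3844 of all 13045 genes were higher in K. Hmgcs1, which makes the HMG-CoA that enters the sterol pathway, was at 1199, 750, 1007 and 872 CPM in K and at 304, 445, 188 and 250.8 CPM in N in mono-culture, with a coculture log2 fold change of 1.56 ± 0.15 (adjusted p = 8.21e-06). In glutathione and oxidant defence, 9 of 26 genes were higher in K and 11 in N, beside 33.5% and 33.7% of all tested genes. Nqo1, a quinone reductase, was at 20.7 to 27.1 CPM in N and at most 0.487 CPM in K in mono-culture, and at -3.96 ± 0.31 in coculture (adjusted p = 2.18e-06).

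Proliferation genes were lower in K. Of 25 replication and mitosis genes, 17 were at least 2-fold higher in N in mono-culture and 0 in K, and in coculture 21 were higher in N and 1 in K. Their median log2 fold change was -2.65 in mono-culture and -1.33 in coculture. The summed level was 675.7 to 794.4 CPM in K and 1811 to 3007 CPM in N in mono-culture, and 1051 to 1664 CPM against 2288 to 3675 CPM in coculture. Bub1, a kinase of the spindle checkpoint, was at 1.75, 0.964, 1.88 and 3.55 CPM in K and at 70.3, 39.7, 35.2 and 52.6 CPM in N in mono-culture. In coculture it was at 14.7, 9.12, 6.02 and 22.3 CPM in K against 57.9 to 94.7 CPM in N (-2.61 ± 0.33, adjusted p = 5.01e-05). Ccna2, cyclin A2, was at 2.68 to 10.3 CPM in K mono-cultures and 13.7 to 52.7 CPM in K cocultures, under the 89.9 to 162 CPM of N cocultures (-2.24 ± 0.36, adjusted p = 0.000268).

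Inhibitors of cyclin-dependent kinases, named here after their values were seen, were split. Cdkn2a, the locus of p16 and p19ARF, was at 550, 489, 540 and 381 CPM in K and at 84.0, 90.8, 92.3 and 112 CPM in N in mono-culture, and its coculture log2 fold change was 2.02 ± 0.14 (adjusted p = 7.3e-07). The neighboring inhibitor gene Cdkn2b was at 1.19 ± 0.15 in coculture (adjusted p = 5.51e-05). Cdkn1a, which encodes p21, was higher in N, at -2.22 ± 0.28 (adjusted p = 4.56e-05). Growth was not measured in these libraries.

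Cytokines were mostly higher in N, with Cxcl12 the main exception. Of 22 ligands, 17 were higher in N and 2 in K in coculture. Il33, an alarmin of the interleukin-1 family, was at 13.5, 10.1, 54.3 and 65.9 CPM in N and at most 1.18 CPM in K in mono-culture, with a coculture log2 fold change of -5.18 ± 0.49 (adjusted p = 7.24e-06). Cxcl1, a neutrophil attractant, was at 8.84 to 20.4 CPM in N and 1.18 to 1.58 CPM in K mono-cultures (-2.49 ± 0.16 in coculture, adjusted p = 5.94e-07). Lif, a ligand of the gp130 receptor chosen after its values were seen, was at -2.03 ± 0.24 in coculture (adjusted p = 3.15e-05). The class I antigen presentation genes were alike, with 9 of 13 higher in N and 2 in K in coculture. H2-K1, a class I heavy chain whose reads can be shared with H2-D1, was at 4.47, 7.51, 3.96 and 9.81 CPM in K and at 73.4, 74.7, 82.8 and 85.7 CPM in N in mono-culture (-3.36 ± 0.22 in coculture, adjusted p = 5.58e-07). Tap2, a subunit of the peptide transporter, was at most 0.974 CPM in K and 11.9 to 30.5 CPM in N mono-cultures, and -3.24 ± 0.40 in coculture (adjusted p = 4.27e-05). Cd274, the checkpoint ligand PD-L1, was higher in K, at 1.92 ± 0.21 in coculture (adjusted p = 1.82e-05).

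The interferon response list held genes higher in either clone. In mono-culture 2 of 25 genes were at least 2-fold higher in K and 7 in N, with a median log2 fold change of -0.28. In coculture 14 passed as higher in K and 8 in N, with a median of 0.56. The counts come from different rules and are not compared between the cultures. Rtp4, an interferon-induced chaperone of receptors chosen after its values were seen, was at 14.2 to 21.05 CPM in K and 2.102 to 4.62 CPM in N cocultures (2.57 ± 0.23, adjusted p = 4.85e-06).

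**Figure D3:**
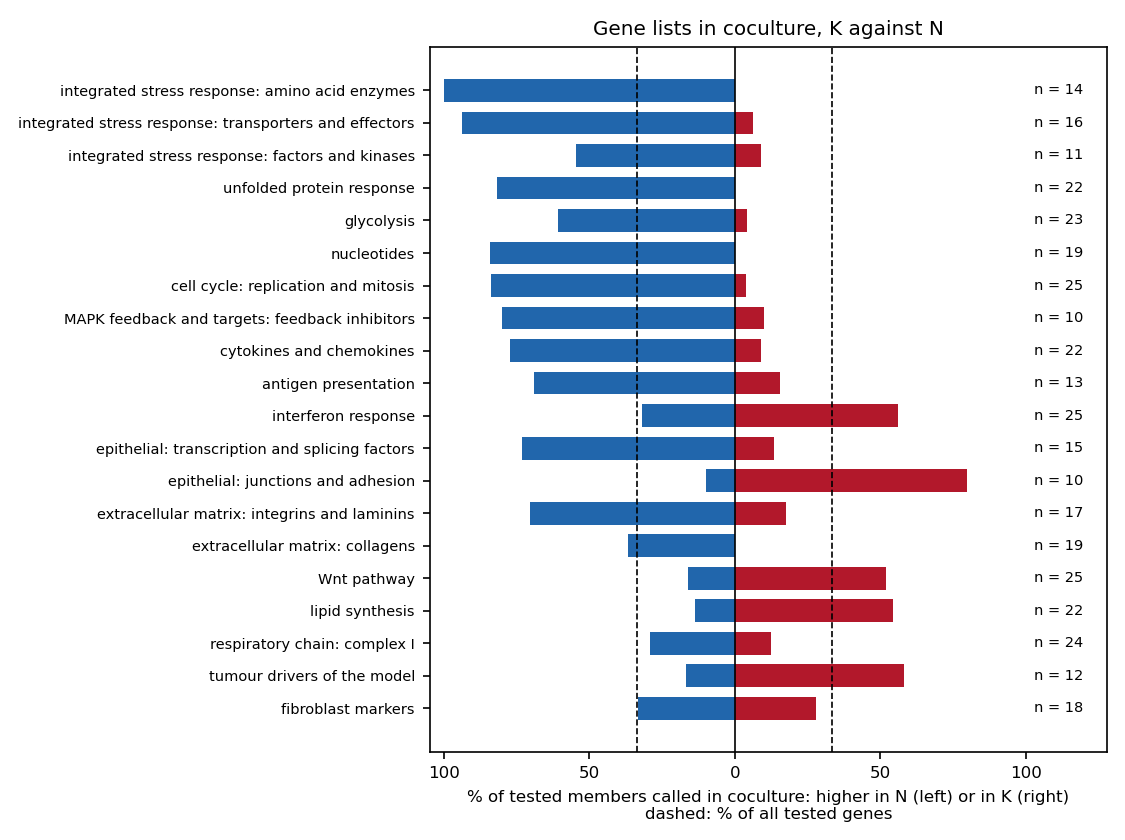
Share of the tested genes of each list, in percent on the horizontal axis, that were higher in K (right of 0) or in N (left of 0) in coculture at an adjusted p under 0.1, with dashed lines at the shares of all tested genes and n the number of tested genes. The integrated stress response enzymes lie wholly on the N side, and 33.5% and 33.7% of all genes lie on the K and N sides.

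Growth factor and Wnt genes differed gene by gene. Of 18 genes of EGF and FGF signaling, 9 were higher in N and 4 in K in coculture. The shares of all tested genes were 33.7% and 33.5%, and over both directions 67.2% passed. The EGF receptor ligands amphiregulin (Areg) and epiregulin (Ereg) had coculture log2 fold changes of -5.48 ± 0.56 and -3.44 ± 0.30 (adjusted p = 1.14e-05 and 3.64e-06). Areg varied between N mono-cultures, at 8.84, 6.75, 51.3 and 78.9 CPM, and all were above the 0.389 to 2.78 CPM of K. Of 10 feedback inhibitors of MAP kinase signaling, 8 were higher in N and 1 in K. Spry4, a Sprouty inhibitor, was at 9.07 to 16.9 CPM in K and 64.7 to 119 CPM in N mono-cultures (-2.46 ± 0.19 in coculture, adjusted p = 1.78e-06).

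Among 25 Wnt pathway genes, 13 were higher in K and 4 in N in coculture, beside 33.5% and 33.7% of all tested genes. The ligands differed in opposite directions. Wnt7a was at 8.33 to 19.8 CPM in K and 0.0713 to 0.899 CPM in N mono-cultures (3.28 ± 0.37 in coculture, adjusted p = 2.13e-05), while Wnt7b and Wnt10a were higher in N, Wnt7b at -2.39 ± 0.21 in coculture (adjusted p = 3.64e-06). Among 17 signals to fibroblasts, 7 were higher in K and 8 in N, beside 33.5% and 33.7% of all tested genes. Pdgfb, a growth factor for mesenchymal cells, was at 76.6 to 156 CPM in K and 20.5 to 33.6 CPM in N mono-cultures, and its coculture difference was smaller, at 0.49 ± 0.20 (adjusted p = 0.0495), and did not pass with first-sheet libraries alone (adjusted p = 0.397) or without any one of K libraries 1 and 2 and N libraries 1 and 2 (adjusted p = 0.104 to 0.151). Tgfbr2, the type II receptor of TGF-beta, was at 163 to 231 CPM in K and 87.7 to 124 CPM in N mono-cultures and passed in coculture at 1.64 ± 0.16 (adjusted p = 8.46e-06).

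Trp53, the tumor suppressor mutated in the model, did not pass in coculture (-0.14 ± 0.12, adjusted p = 0.334). The counts do not separate mutant from normal alleles. Myc, a transcription factor of growth and metabolism, was higher in N, at -0.99 ± 0.17 in coculture (adjusted p = 0.000429).

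Genes of chromosome 13 were higher in K as a block. Among its 482 tested genes the median log2 fold change was 0.91 in mono-culture and 0.81 in coculture, beside -0.01 in both for all genes. By the 2-fold rule 207 of them (42.9%) were higher in K and 21 (4.36%) in N in mono-culture. Measured against the mean of the N libraries, the chromosome's median was 1.02, 0.88, 0.88 and 0.92 in the 4 K mono-cultures and 0.82, 0.80, 0.87 and 0.81 in the 4 K cocultures. The 8 N libraries lay within 0.023 of 0, so no library overlapped. Cut along the chromosome into 9 windows of 50 genes, every window had a median above 0, from 0.73 to 1.42 in mono-culture and from 0.64 to 2.01 in coculture. On the RPKM scale with a pseudocount of 1, where the median of all genes shifted by -0.12 in mono-culture, the chromosome's medians were 0.55 and 0.53.

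Against the other lines N stood apart on this chromosome more than K did. The median deviation from the middle of the 8 lines was -0.60 for N and 0.30 for K in mono-culture, with M at 0.27 and V at 0.24, and N was the lowest of 8 lines for 282 of the 482 genes (58.5%). In coculture N was at -0.54 and lowest for 274 genes. The other autosomes and X differed less, while the 5 tested genes of chromosome Y had medians of 0.54 in mono-culture and 0.85 in coculture and the 19 mitochondrial genes 0.09 and 0.79. Chromosome 10 was at 0.29 toward K in both cultures, with K the highest of the 8 lines. Chromosomes 6 and 11 were at -0.38 and -0.36 in mono-culture and -0.30 and -0.32 in coculture, with K the lowest line in mono-culture. Chromosome X was at 0.31 in both cultures, with N the lowest line. DNA copy number was not measured.

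**Figure D4:**
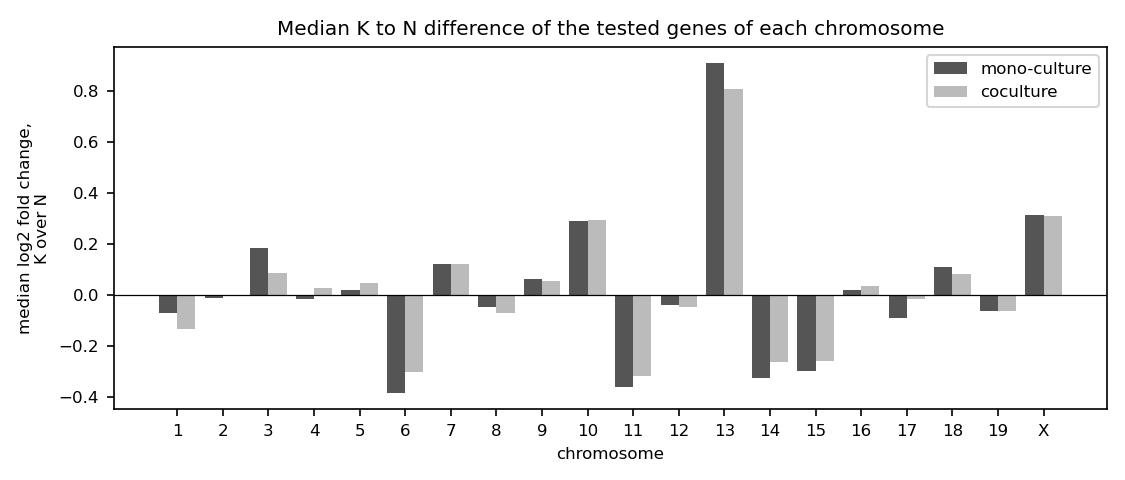
Median log2 fold change of K over N for the tested genes of each chromosome, drawn as dark bars for mono-culture and light bars for coculture. Chromosome 13 lies at 0.91 and 0.81, and the autosomes otherwise lie between -0.38 and 0.29.

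Single genes of chromosome 13 differed by more than the chromosome's median; those named here were chosen after their values were seen. Sox4, a transcription factor of progenitor cells, was at 1656, 1415, 1569 and 1059 CPM in K and at 118, 176, 233 and 242 CPM in N in mono-culture (2.44 ± 0.13 in coculture, adjusted p = 2.4e-07). F2r, the thrombin receptor PAR1, was at 688 to 1126 CPM in K and 76.8 to 124 CPM in N mono-cultures (2.11 ± 0.18 in coculture, adjusted p = 3.75e-06). Dbn1, the actin-binding protein drebrin, had a mono-culture log2 fold change of 5.16 ± 0.32 and a coculture value of 3.79 ± 0.23 (adjusted p = 4.71e-07). Pfkp, described above, lies on the same chromosome and was higher in N in every library of both cultures. Of the tested histone genes with names in Hist1, 15 of 15 were higher in K in both cultures, with median log2 fold changes of 3.14 and 3.97. By the same rules 11.4% of all tested genes were higher in K in mono-culture and 33.5% in coculture. A histone gene near 0 in N could pass the count filter only through K, so the count is a description. Only Hist1h2bc and Hist1h1c had a mean above 10 CPM in K mono-cultures. Hist1h2al lies apart from the other Hist1 genes, at base 51202727, and Hist1h3d had no position in the annotation used. Hist1h1c, a linker histone, was at 188 to 305 CPM in K and 20.8 to 56.5 CPM in N mono-cultures (2.93 ± 0.18 in coculture, adjusted p = 4.9e-07). Replication-dependent histone transcripts lack polyA tails, these libraries were polyA-selected, and histone genes have near-identical copies, so their levels are uncertain.

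Placed among the 8 lines in mono-culture, K was more often at the extreme than N. Of the 1492 genes higher in K, K was the highest of 8 lines for 873 (58.5%) and N the lowest for 615 (41.2%). Of the 1787 higher in N, K was the lowest for 1030 (57.6%) and N the highest for 691 (38.7%). Over all tested genes K was the highest for 18.4% and the lowest for 18.6%, and N for 12.8% and 12.5%. Being at the extreme within the pair was favored by the choice of genes, so these shares are a description. In the integrated stress response N was not alone. For Asns, KPC1 had a higher mean than N and only M a lower mean than K, and for Slc7a11 N was highest, followed by T and KPC1, with K and M lowest.

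**Figure D5:**
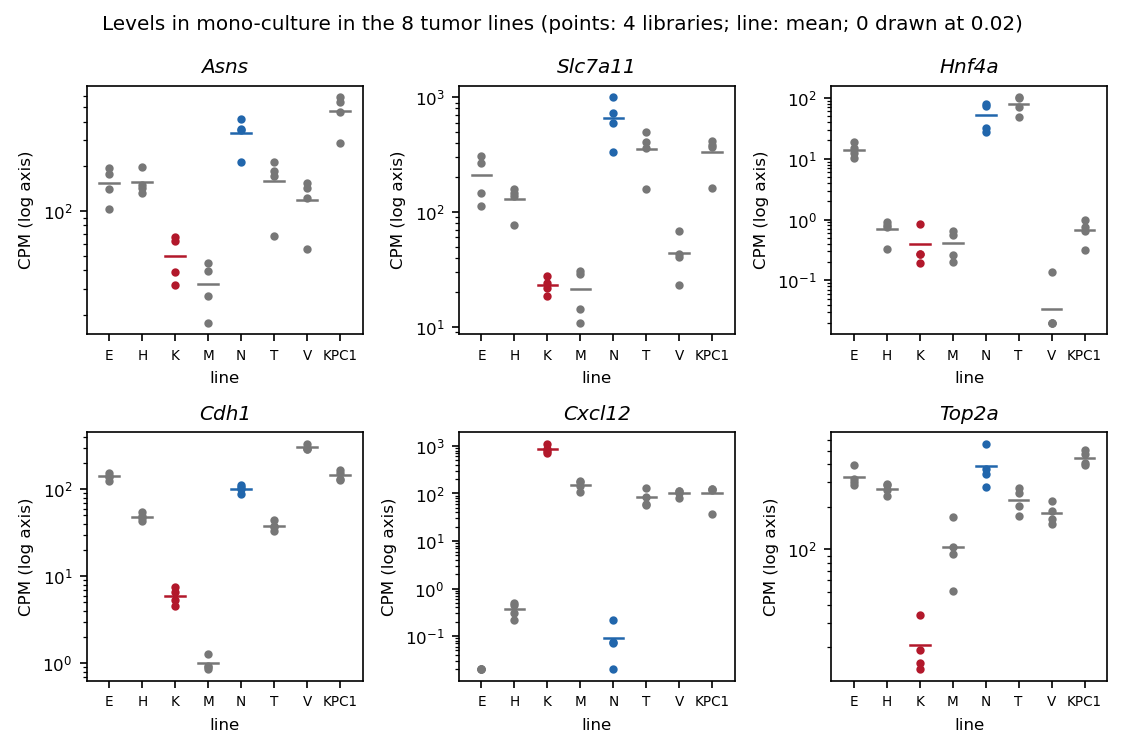
Mean CPM of 4 mono-culture libraries in each of the 8 lines on a log10 axis, with the single libraries as points, for genes that differed between K and N. For Asns KPC1 and N are the 2 highest lines and K and M the 2 lowest.

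The correlation that marked the pair was also low in coculture. Over 13045 genes, Pearson's r between the mean log2 CPM of K and N was 0.873 in mono-culture, where it was the lowest of 21 pairs of clones, and 0.8995 in coculture, also the lowest of 21. With genes at 1 CPM or more in every clone and culture, 10386 in number, the coculture r was 0.902 and the second lowest of 21 pairs, after K with V. Single libraries of 1 clone and culture correlated with each other at 0.966 to 0.988, and K with N libraries at 0.845 to 0.886 in mono-culture and 0.867 to 0.899 in coculture. Genes are not independent replicates and these coefficients carry no p-value.

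The promoters of genes that differed most toward either clone had fewer CpG dinucleotides than those of all tested genes. For genes at least 4-fold higher in N, the median was 13 CpG per 300-base promoter against 20 for all tested genes, and for genes at least 4-fold higher in K it was 16. The letters TATAAA, on either strand, were in 11.8% of the first set and 7.29% of all promoters, and TGANTCA, the core of AP-1 sites, in 8.85% and 5.31%. Both were also more frequent in the set higher in K than in all promoters, at 9.78% and 7.39%. These promoters were of genes selected by their mono-culture values, and the shares are a description.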

How the data were processed

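RNA was polyA-selected and sequenced as strand-specific paired ends, per the labels. The authors deposited a table of raw counts per gene for 39017 genes and a table of RPKM values that they computed per gene. Per the labels, the submitters' processing notes name mm10, featureCounts and edgeR; the aligner is not given in the sources used here. The authors' RPKM values entered alternatives alone. Counts were analysed here with edgeR 4.0.16 (TMM over 64 libraries, filterByExpr on the 16 libraries of K and N, 13045 genes kept, quasi-likelihood test, Benjamini-Hochberg adjustment at 0.1) in R 4.3.3, and log2 CPM used a prior count of 0.5. Coculture was fitted on its 8 libraries, and mono-culture gives estimates only. Positions came from GENCODE M21. The 12 largest mono-culture differences per direction at 10 CPM or more, the 4 largest per gene list and 8 preset genes could be named; any other gene is marked as picked with its values known. The pair and the lists were chosen with earlier results of these data known. At these depths 3 counts, taken as the floor, lie far under the differences described, and folds against the floor cover counting error only. The scripts were tested on simulated data. Alternatives were another normalization (RLE size factors), DESeq2 1.42.0, other filters, the sheet term, first-sheet libraries alone, a replicate block, RPKM with pseudocounts of 1 and 0.1, and each library left out. Values of some genes are not reported here.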

Additional observations from a re-analysis of the deposited data

Results flagged for a closer look

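Of 292 groups of 4 libraries checked over the genes given values above, 16 had a library whose gap to its nearest neighbor, divided by the range of the group, exceeded Dixon's 95% critical value; chance alone flags about 1 group in 20. In K mono-cultures this ratio was 1 for Muc13, 0.873 for Hnf4a, 0.86 for Xbp1, 0.939 for Bcat1, 0.866 for Ereg and 0.972 for Ccna2. In N mono-cultures it was 1 for Edn1, 0.842 for Jup, 0.889 for Tjp1 and 0.848 for Cp. In K cocultures it was 0.855 for Hk2, 0.954 for Hist1h1c and 0.852 for Cp, and in N cocultures 0.845 for Muc13, 0.853 for Trib3 and 0.864 for Sox4. For Muc13 and Edn1 the ratio of 1 comes from a single library with counts.

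In 28 genes the clones stood apart in opposite directions in mono-culture and coculture, and 2 of these were at least 2-fold apart in mono-culture. Both were chosen after their values were seen. Cp, the copper carrier ceruloplasmin, was at 99.4 to 249 CPM in K and 342 to 411 CPM in N mono-cultures, and at 398 to 439 CPM in K and 217 to 377 CPM in N cocultures. The log2 fold change of K over N differed by -1.53 between mono-culture and coculture. Fhdc1 was at 18.6 to 33.7 CPM in K and 7.56 to 12.3 CPM in N mono-cultures, and at 14.8 to 18.7 CPM in K and 19.2 to 36.99 CPM in N cocultures, a difference of 2.21. The difference between cultures was not tested.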

How the results depend on the processing

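The 3279 mono-culture differences became 1947 (751 toward K and 1196 toward N) on log2 RPKM with a pseudocount of 1, a scale that compresses genes of low level, and 3226 to 3547 with 1 library left out. The 8767 coculture calls were 7537 with first-sheet libraries alone, 8638 by DESeq2, 8881 with the replicate block, 7038 with the 2 libraries of each clone with least fibroblast RNA (an alternative chosen after seeing the data) and 8069 to 8788 with 1 library left out. Of the mono-culture differences, 2964 passed in coculture, 2878 to 2987 with 1 library left out and 1287 for those at least 4-fold. The sheet term called 446 genes over all libraries and 5 in mono-cultures alone. The medians of chromosome 13 were 0.551 and 0.532 on log2 RPKM with a pseudocount of 1. Coculture values of 2 named genes reversed, Tagln at -0.018 with first-sheet libraries alone and Eif2ak4 at -0.11 with the least fibroblast RNA, and neither had passed before. The cause was not tested.

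Same-numbered coculture libraries deviated together weakly, with correlations of 0.079 to 0.209, and 3 of 4 K libraries correlated best with their own number. These numbers were not taken as pairs, since not every correlation exceeded 0.1. With the replicate block 8594 calls were shared and 173 lost, and of the named genes Thbs1 lost its call. A correlation of K with N in first-sheet mono-cultures could not be computed, as K had none. Sheet numbers were read from the labels' sample numbers. The 4 libraries per clone limit the precision, and depth limits folds where a clone had 3 counts or fewer.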

Other observations

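Hypoxia genes were split between the clones. Of 13 tested, 4 were higher in K and 6 in N in coculture, beside 33.5% and 33.7% of all tested genes. Epas1, which encodes the hypoxia-inducible factor HIF-2α, had a log2 fold change of -7.97 ± 0.52 in mono-culture and -3.29 ± 0.41 in coculture (adjusted p = 4.79e-05).

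Of 4 Y-linked genes tested, 3 were higher in K in coculture and all 4 had a positive mono-culture log2 fold change. Eif2s3y, a translation initiation factor gene of the Y chromosome, was at 79.6 to 87.4 CPM in K and 25.7 to 40.5 CPM in N mono-cultures, and at 76.5 to 82.4 CPM in K and 26.96 to 58.2 CPM in N cocultures (1.03 ± 0.20, adjusted p = 0.000959).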
